A study of Danio rerio with 15 samples.

Results

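The DNA damage response and repair genes described here are the genes of 47 proteins that sense DNA lesions, signal them to the cell cycle or mend them. They were chosen by name and not by a filter on their measured values, though with earlier results of these data known. A probe set was taken only where the platform annotation gives it 1 gene symbol, and where several qualified the brightest on average over all arrays stood for the gene. By this rule 28 of the 47 genes were measured, among 8793 genes with a probe set of their own. They comprised 7 of 11 checkpoint kinases and sensors (*chek1*, *chek2*, *topbp1*, *rad1*, *rad9a*, *mdc1* and *h2ax*), 2 of 4 genes for break ends and resection (*nbn* and *rbbp8*), 2 of 5 for homologous recombination (*brca2* and *rad54l*) and 3 of 5 for non-homologous end joining (*xrcc5*, *xrcc6* and *prkdc*). The others were 2 of 4 Fanconi anemia pathway genes (*fancl* and *usp1*), 6 of 7 for nucleotide excision repair (*ddb1*, *ddb2*, *xpc*, *xpa*, *ercc2* and *ercc3*), 4 of 9 for base excision and single-strand break repair (*apex1*, *lig3*, *neil1* and *xrcc1*), the mismatch repair gene *msh6* and the translesion polymerase gene *polh*. The remaining 19, among them the apical kinase genes *atm* and *atr*, had no such probe set and were not analysed here.

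Broken DNA and stalled replication forks are recognised by sensor proteins that activate the kinases ATM and ATR. These act through CHK2 and CHK1 to hold the cell cycle, and through p53 to raise the transcription of genes for arrest and cell death. Repair then follows the lesion: breaks across both strands are joined end to end or copied from the sister chromatid, which cohesin holds close, crosslinks pass to the Fanconi anemia proteins, and damaged bases are cut out. Many of these proteins also serve normal replication, and their genes are transcribed in dividing embryonic cells. The kinases and sensors are regulated in large part by modification of the protein, which an array does not measure.

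Esco2 is the acetyltransferase that establishes sister chromatid cohesion during replication. The morphants were wild type zebrafish embryos that received the esco2_ATG morpholino, which stops *esco2* mRNA from being translated, and the controls received only buffer, so no array shows the response to an unrelated morpholino. Transcripts were measured on 15 Affymetrix arrays, each with RNA from a pool of 50 whole embryos: 4 control and 4 *esco2* morphant pools at 24 hpf, and 3 control pools (numbered 1, 3 and 4) and 4 morphant pools at 48 hpf. The control array numbered 2 at 48 hpf was described as faulty by the submitters and was not analysed here. The published methods instead give 4 replicates and state that every array passed quality control.

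All values are log2 levels from robust multi-array averaging (RMA), and differences are on the log2 scale. They were tested with limma in 1 fit over all arrays and 15502 probe sets, and a gene was called at a Benjamini-Hochberg adjusted p under 0.05 with no minimum fold. The *esco2* transcript itself checks nothing here, since the morpholino blocks translation: its log2 difference was -0.31 at 24 hpf (adjusted p = 0.0345) and 0.40 at 48 hpf (adjusted p = 0.00643). Control replicate 3 at 48 hpf stood apart, with a mean correlation to its own group of 0.985 against 0.989 to 0.997 for the other arrays. The spread of the repair genes was also widest in that group, with a median SD of 0.156 against 0.0808 to 0.114 in the other groups. Markers were measured for neurons, neural progenitors, muscle, red blood cells, epidermis, notochord, lens and endothelium. The dimmest of them, *myod1*, lay at percentile 47.1 of all probe sets. Whether each marker was detected above the background was not tested. Precision is limited by the number of arrays.

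At 24 hpf few of the repair and checkpoint genes passed the test in *esco2* morphants. None of the 28 was called higher, beside 4.43% of all probe sets and 5.77% of all genes with 1 probe set each. Called lower were 2 (7.14%), beside 5.33% and 6.2%. These were *usp1*, which encodes the deubiquitinase of the Fanconi anemia pathway, and *xrcc5*, which encodes the Ku80 subunit of the DNA end-binding complex. At an unadjusted p under 0.05 the counts were 1 higher and 11 lower, beside 1674 and 1840 of the 15502 probe sets. The count of 2 became 1 without control replicate 1, 2 or 3 or morphant replicate 1, 2 or 3 of 24 hpf or morphant replicate 2 of 48 hpf. It became 6 without control replicate 3 of 48 hpf, which added *msh6*, *polh*, *ercc2* and *apex1*. In that fit 8.56% of all probe sets were lower at 24 hpf. The median log2 difference of the 28 was -0.14, beside 0.01 for all genes, and the range ran from -0.38 to 0.18. Of the 28 genes 22 lay below 0, beside 4223 of all 8793 genes. The mean log2 level over the 28 genes was 6.71 to 6.74 in the control arrays and 6.58 to 6.62 in the morphant arrays, without overlap. In pools of whole embryos, fewer cells of a type and less RNA per cell cannot be told apart.

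At 48 hpf the set was mixed. Of the 28 genes 5 (17.9%) were called higher, beside 12.8% of all probe sets: *mdc1*, *fancl*, *chek1*, *rbbp8* and *rad9a*. The 2 called lower (7.14%, beside 9.79%) were *polh* and *ercc3*. The shares over all genes with 1 probe set each were 14.3% higher and 11.7% lower. The median log2 difference of the 28 was 0.05, beside 0.01 for all genes, with a range from -0.43 to 0.64. The count of 5 became 2 without morphant replicate 1 of 48 hpf and 1 without morphant replicate 2. With the 48 hpf arrays fitted alone only *mdc1* was called higher and only *polh* lower. No gene was called at both time points and 9 were called at either, which was not counted over all probe sets. None was called with a fold of 2. Of all 15502 probe sets few were, with 59 higher and 16 lower at 24 hpf and 108 and 33 at 48 hpf. All 28 intervals (95%) lay within a fold of 2 at both times, with the highest upper bound at a log2 difference of 0.83 (*mdc1* at 48 hpf).

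**Figure D1:**
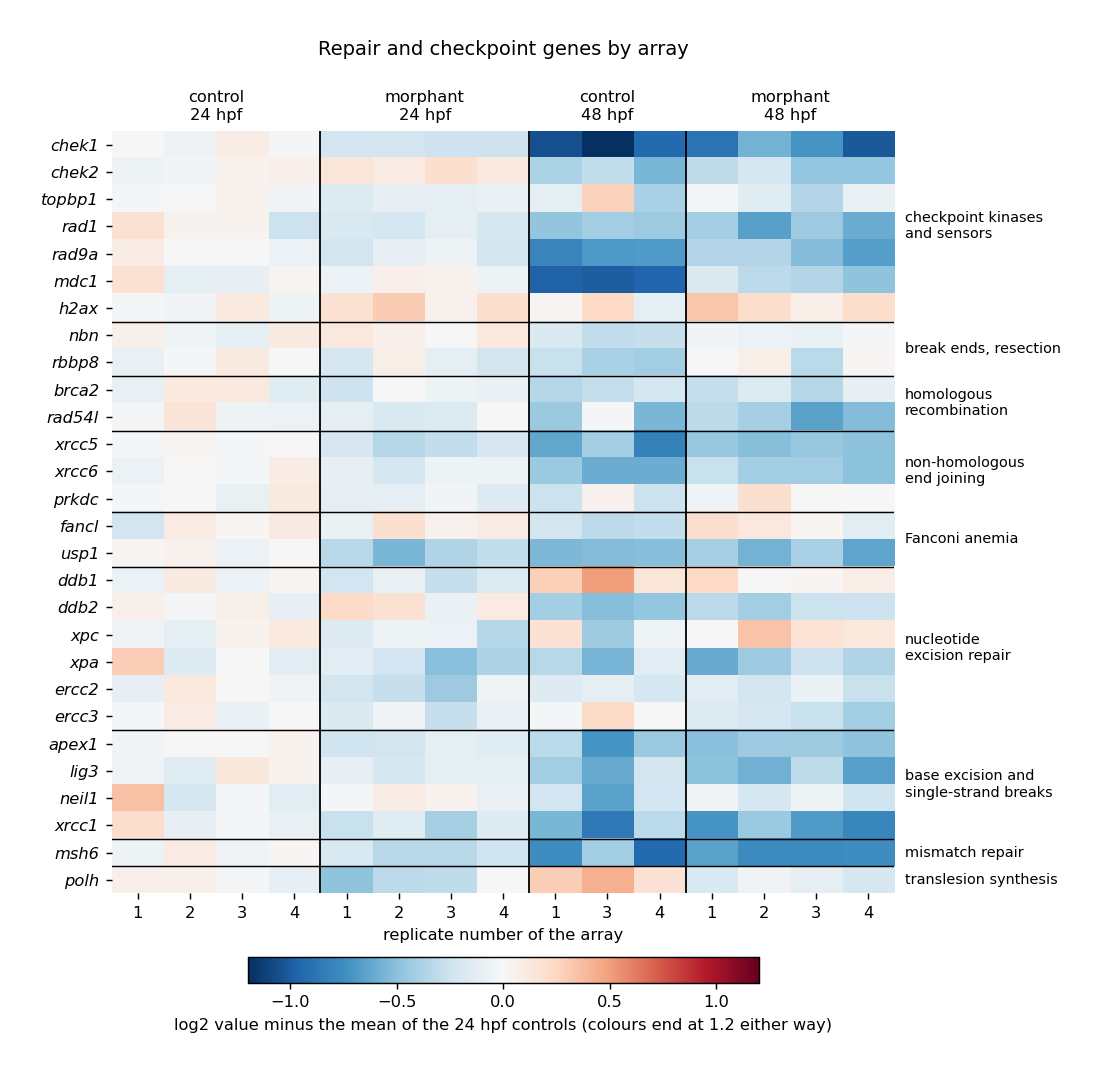
Log2 value of each of the 28 genes (rows, grouped by role) in each of the 15 arrays (columns, by replicate number), as the difference from the mean of the 4 controls at 24 hpf; red is higher and blue lower. Most rows turn blue from 24 to 48 hpf, *chek1* and *mdc1* most deeply in the 48 hpf controls, and *polh* and *ddb1* turn red there.

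**Figure D2:**
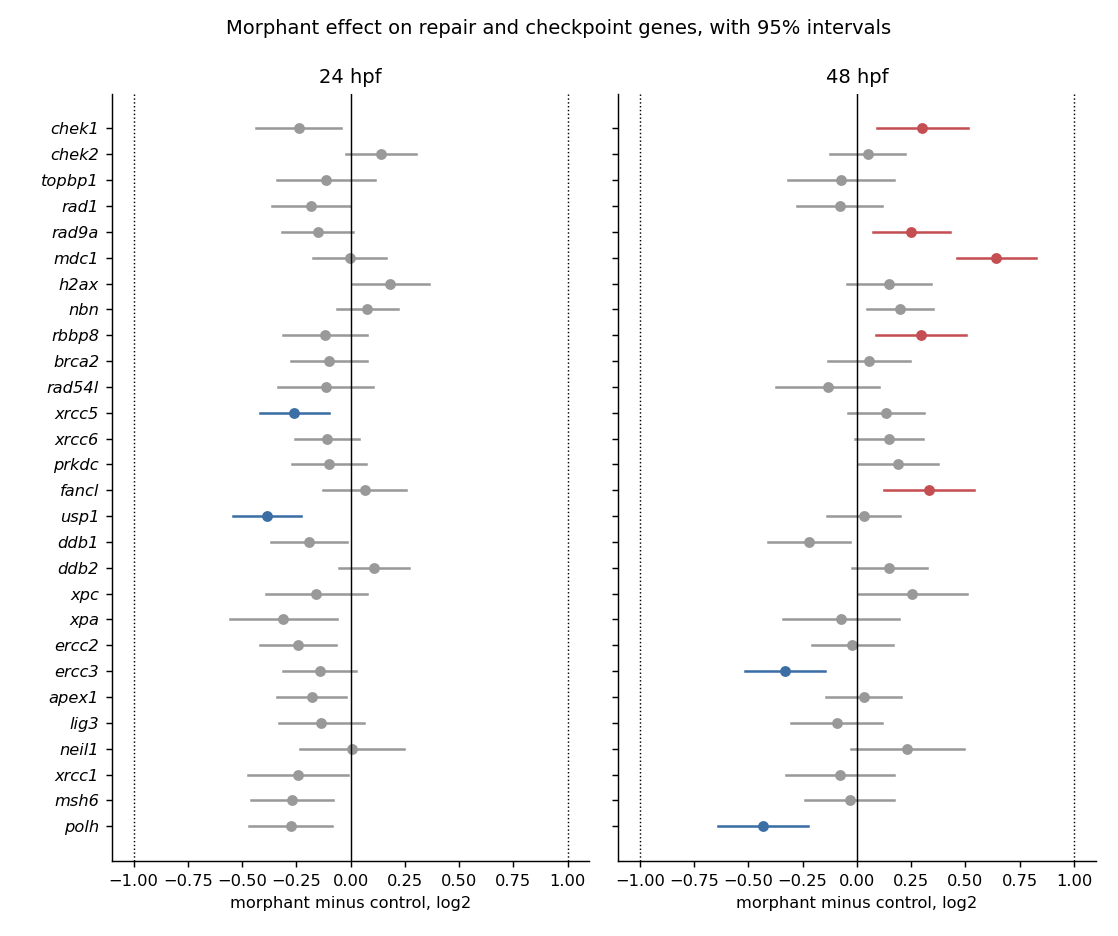
Log2 difference between morphants and controls (points) with its 95% interval (lines) for the 28 genes at 24 and 48 hpf; red marks genes called higher, blue those called lower and grey those not called, and dotted lines mark a fold of 2. The differences at 24 hpf lie mostly left of 0, and no interval reaches a fold of 2.

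Of the checkpoint genes, *mdc1* showed the clearest difference at 48 hpf. It encodes the adaptor that binds phosphorylated H2AX beside a break. Its log2 levels at 24 hpf were 6.96, 6.67, 6.68 and 6.82 in controls and 6.71, 6.85, 6.83 and 6.72 in morphants. At 48 hpf they were 5.81, 5.79 and 5.83 in controls and 6.61, 6.47, 6.43 and 6.30 in morphants. The groups overlapped at 24 hpf, whereas at 48 hpf all morphants lay above all controls, between the controls of the same age and those of 24 hpf. The log2 difference was 0.00 at 24 hpf (standard error 0.08, adjusted p = 0.983) and 0.64 at 48 hpf (standard error 0.09, 1.56-fold, adjusted p = 5.53e-05). A second probe set of *mdc1* gave 0.63 at 48 hpf (adjusted p = 0.000308). The call held when any of the 15 arrays was left out.

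*chek1*, which encodes the kinase CHK1 that ATR activates at stalled forks, had differences of opposite sign at the 2 ages. At 24 hpf its log2 levels were 7.67, 7.61, 7.76 and 7.66 in controls and 7.45, 7.45, 7.43 and 7.43 in morphants, and at 48 hpf they were 6.62, 6.39 and 6.74 in controls and 6.79, 7.11, 6.97 and 6.67 in morphants. Every morphant array was below every control array at 24 hpf, and the groups overlapped at 48 hpf. The log2 difference was -0.24 at 24 hpf (standard error 0.09), which was not called in the fit over all arrays (adjusted p = 0.118) and was called with the 24 hpf arrays fitted alone (adjusted p = 0.014). At 48 hpf it was 0.30 (standard error 0.10, 1.23-fold, adjusted p = 0.0368). That call was lost without control replicate 1 or 3 or morphant replicate 2 or 3 of 48 hpf, with a range of the adjusted p from 0.0121 to 0.159.

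*rad9a* encodes a subunit of the clamp that is loaded at damaged DNA and recruits the activator of ATR. Its log2 levels at 24 hpf were 5.70, 5.60, 5.60 and 5.54 in controls and 5.39, 5.51, 5.55 and 5.39 in morphants, and at 48 hpf 4.82, 4.92 and 4.93 in controls and 5.26, 5.26, 5.09 and 4.96 in morphants. The groups overlapped at 24 hpf and did not at 48 hpf, where the lowest morphant array came within 0.03 of the highest control. The log2 difference was -0.15 at 24 hpf (adjusted p = 0.26) and 0.25 at 48 hpf (standard error 0.08, adjusted p = 0.0376), and the latter call was lost without control replicate 1 or morphant replicate 1 or 2.

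The other kinase and sensor genes were not called at either age. *chek2*, which encodes the kinase CHK2 that ATM activates, had log2 levels of 7.14, 7.17, 7.25 and 7.27 in controls and 7.36, 7.31, 7.40 and 7.33 in morphants at 24 hpf, and of 6.82, 6.91 and 6.66 against 6.90, 7.0, 6.74 and 6.74 at 48 hpf. Its morphant arrays all lay above the controls at 24 hpf by a log2 difference of 0.14 (95% interval -0.02 to 0.30), and the groups overlapped at 48 hpf, with a difference of 0.05 (interval -0.12 to 0.22). *h2ax*, which encodes the histone variant phosphorylated beside breaks, had levels of 9.21, 9.18, 9.34 and 9.16 against 9.40, 9.53, 9.27 and 9.42 at 24 hpf, and of 9.26, 9.46 and 9.12 against 9.55, 9.43, 9.30 and 9.43 at 48 hpf. The *h2ax* groups overlapped at both ages, and its log2 differences were 0.18 (interval 0.01 to 0.36, adjusted p = 0.205) and 0.15 (interval -0.04 to 0.34). Genes of H2A histones are close copies of each other, and the probes may be shared between them. *topbp1*, the gene of the activator of ATR, and *rad1*, the gene of another clamp subunit, had log2 differences of -0.12 and -0.18 at 24 hpf and of -0.07 and -0.08 at 48 hpf.

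Of the genes that process break ends, *rbbp8*, which encodes the resection factor CtIP, was called higher at 48 hpf. Its log2 levels were 5.40, 5.47, 5.60 and 5.48 in controls and 5.28, 5.56, 5.37 and 5.27 in morphants at 24 hpf, and 5.23, 5.10 and 5.07 in controls and 5.49, 5.56, 5.16 and 5.51 in morphants at 48 hpf. Morphant replicate 3 at 48 hpf lay among the controls and the other 3 lay above them. The log2 difference was -0.12 at 24 hpf and 0.30 at 48 hpf (standard error 0.10, adjusted p = 0.0381), and this call was lost without control replicate 3 or 4 or morphant replicate 1, 2 or 4. *nbn*, the gene of the NBS1 subunit of the end-binding MRN complex, had a log2 difference of 0.08 at 24 hpf and 0.20 at 48 hpf (adjusted p = 0.0583).

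Neither homologous recombination gene was called. *brca2*, whose product is needed for repair of breaks from the sister chromatid, had log2 levels of 3.37, 3.58, 3.58 and 3.32 in controls and 3.22, 3.46, 3.40 and 3.38 in morphants at 24 hpf, and of 3.12, 3.18 and 3.25 against 3.19, 3.30, 3.12 and 3.36 at 48 hpf. The groups overlapped at both ages, with log2 differences of -0.10 and 0.06. The probe set lay at percentile 7.75 of all probe sets, where the background of the array can hide much of a change. *rad54l*, which encodes a motor protein that aids strand exchange, had log2 differences of -0.12 and -0.14.

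Among the end joining genes, *xrcc5* was lower at 24 hpf. Its log2 levels were 8.34, 8.39, 8.32 and 8.35 in controls and 8.15, 8.01, 8.05 and 8.15 in morphants at 24 hpf, and 7.73, 7.94 and 7.54 in controls and 7.89, 7.84, 7.89 and 7.86 in morphants at 48 hpf. The groups were apart at 24 hpf, and at 48 hpf the morphants lay inside the wide range of the controls. The log2 difference at 24 hpf was -0.26 (standard error 0.08, 0.835 of the control level, adjusted p = 0.0388), and the call was lost when any of 9 arrays was left out, all 8 of 24 hpf among them (adjusted p 0.00762 to 0.119 over the 15 arrays). *xrcc6*, the gene of the partner subunit Ku70, had log2 differences of -0.11 and 0.15, and *prkdc*, the gene of the kinase that Ku recruits, of -0.10 and 0.19, none of them called. Without control replicate 3 of 48 hpf, both *prkdc* (0.29, adjusted p = 0.0166) and *xrcc5* (0.24, adjusted p = 0.0311) were called higher at 48 hpf.

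In the Fanconi anemia pathway *usp1* fell at 24 hpf, with log2 levels of 8.69, 8.73, 8.61 and 8.69 in controls and 8.34, 8.13, 8.32 and 8.39 in morphants. At 48 hpf the levels were 8.14, 8.15 and 8.17 in controls and 8.28, 8.11, 8.29 and 8.05 in morphants. Every morphant array was below every control array at 24 hpf, the morphant levels of 24 hpf reached down to those of the 48 hpf controls, and the groups overlapped at 48 hpf. The log2 difference at 24 hpf was -0.38 (standard error 0.07, 0.766 of the control level, adjusted p = 0.00266), and it kept its call under every alternative tried without a minimum fold and without any 1 array. *fancl*, which encodes the ubiquitin ligase that marks FANCD2 and FANCI, had levels of 4.67, 5.0, 4.92 and 5.0 in controls and 4.82, 5.09, 4.95 and 4.99 in morphants at 24 hpf, and of 4.68, 4.58 and 4.60 against 5.11, 5.02, 4.92 and 4.77 at 48 hpf. The *fancl* groups overlapped at 24 hpf and were apart at 48 hpf, where the log2 difference was 0.33 (standard error 0.10, 1.26-fold, adjusted p = 0.0203), a call lost without morphant replicate 1 or 2.

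**Figure D3:**
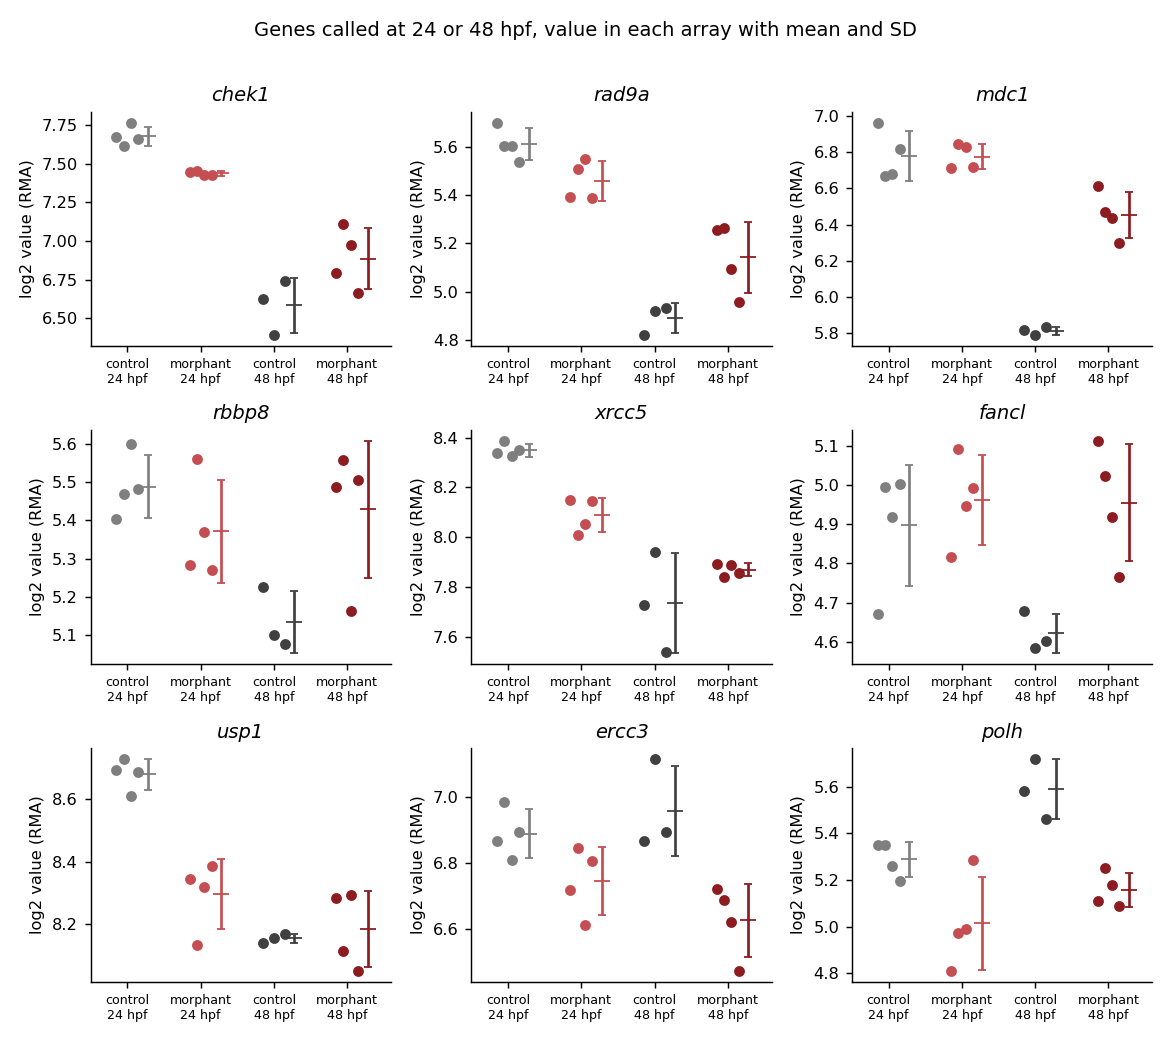
Log2 value in each array (points) of the 9 genes called at 24 or 48 hpf, with the mean and SD of each group beside the points; each panel has its own log2 axis, which does not start at 0. The *mdc1* morphants at 48 hpf lie between 6.30 and 6.61, all above the controls of that age, and the *usp1* morphants at 24 hpf lie between 8.13 and 8.39, all below theirs.

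Of the nucleotide excision repair genes, *ercc3*, which encodes the XPB helicase of the TFIIH complex, was lower at 48 hpf. Its log2 levels were 6.87, 6.99, 6.81 and 6.90 in controls and 6.72, 6.85, 6.61 and 6.81 in morphants at 24 hpf, and 6.87, 7.12 and 6.89 in controls and 6.72, 6.69, 6.62 and 6.47 in morphants at 48 hpf. The groups overlapped at 24 hpf, and at 48 hpf every morphant array was below every control array. The log2 difference was -0.14 at 24 hpf and -0.33 at 48 hpf (standard error 0.09; adjusted p = 0.0101). This call was lost with the 48 hpf arrays fitted alone and with the arrays centred on ribosomal protein genes.

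*ddb2* and *xpc* encode the lesion detectors of this pathway, and in human cells both genes are transcribed under the control of p53. *ddb2* had log2 levels of 7.24, 7.15, 7.25 and 7.08 in controls and 7.41, 7.37, 7.10 and 7.28 in morphants at 24 hpf, and of 6.77, 6.67 and 6.72 against 6.86, 6.77, 6.92 and 6.93 at 48 hpf. Its groups overlapped at both ages, with log2 differences of 0.11 (95% interval -0.05 to 0.27) and 0.15 (interval -0.02 to 0.32). For *xpc* the levels were 5.06, 5.0, 5.15 and 5.22 against 4.95, 5.05, 5.04 and 4.77 at 24 hpf, and 5.28, 4.69 and 5.06 against 5.11, 5.45, 5.27 and 5.23 at 48 hpf. The *xpc* controls at 48 hpf spread widely, with replicate 3 lowest, and the log2 differences were -0.16 (interval -0.39 to 0.07) and 0.26 (interval 0.00 to 0.51, adjusted p = 0.139). A second, dimmer probe set of *xpc* overlapped at both ages. It measured 4.79, 4.44, 4.40 and 4.31 in controls and 4.34, 4.60, 4.44 and 4.64 in morphants at 24 hpf. At 48 hpf it measured 4.61, 4.50 and 4.45 in controls and 4.60, 4.64, 4.57 and 4.81 in morphants. Centred on ribosomal protein genes, *ddb2* and *xpc* were called higher at 48 hpf, by 0.26 and 0.37, as were 24.9% of all probe sets. The remaining genes of the pathway were *ddb1*, which encodes the partner of DDB2 in a ubiquitin ligase, *xpa*, which encodes the damage verification factor, and *ercc2*, which encodes the XPD helicase. Their log2 differences were -0.19, -0.31 and -0.24 at 24 hpf and -0.22, -0.07 and -0.02 at 48 hpf, and none was called.

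The 4 genes of base excision and single-strand break repair were called at neither age. *apex1* (the AP endonuclease), *lig3* (DNA ligase III) and *xrcc1* (the scaffold of single-strand break repair) had log2 differences of -0.18, -0.13 and -0.24 at 24 hpf and of 0.03, -0.09 and -0.08 at 48 hpf. *neil1*, which encodes a glycosylase for oxidised bases, had 0.01 and 0.23. *msh6*, which encodes a subunit of the mismatch recognition complex, had log2 levels of 8.68, 8.84, 8.70 and 8.75 in controls and 8.56, 8.41, 8.41 and 8.50 in morphants at 24 hpf, and of 8.0, 8.33 and 7.80 against 8.10, 7.97, 7.98 and 8.0 at 48 hpf. Every *msh6* morphant array was below every control array at 24 hpf and inside their range at 48 hpf. Its log2 difference at 24 hpf was -0.27 (standard error 0.09, adjusted p = 0.0702), and with the 24 hpf arrays fitted alone the adjusted p was 0.0118.

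*polh*, the gene of the polymerase that copies past ultraviolet lesions and another gene that p53 controls in human cells, was lower in morphants. Its log2 levels were 5.35, 5.35, 5.26 and 5.19 in controls and 4.81, 4.97, 4.99 and 5.29 in morphants at 24 hpf, and 5.58, 5.72 and 5.46 in controls and 5.11, 5.25, 5.18 and 5.09 in morphants at 48 hpf. Morphant replicate 4 overlapped the controls at 24 hpf, and at 48 hpf every morphant array was below every control array. The log2 difference was -0.28 at 24 hpf (standard error 0.09, adjusted p = 0.0664) and -0.43 at 48 hpf (standard error 0.10, 0.741 of the control level, adjusted p = 0.00394). The call at 48 hpf held when any of the 15 arrays was left out.

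The difference between the effects at 48 and 24 hpf was tested in the same fit, since a call at 1 age only does not show that the ages differ. Of the 28 genes 5 (17.9%) had a significantly higher effect at 48 hpf, beside 3.75% of all probe sets, and none a lower one, beside 2.52%. The shares over all genes with 1 probe set each were 4.05% and 3.16%. At an unadjusted p under 0.05 the counts among the 28 were 9 and 0, beside 1832 and 1185 of the 15502 probe sets. The difference of the effects was 0.65 for *mdc1* (adjusted p = 0.00354), 0.54 for *chek1* (0.024), 0.41 for *usp1* (0.0312), 0.40 for *rad9a* (0.0428) and 0.39 for *xrcc5* (0.0445). It lay above 0 for 22 of the 28 genes, beside 4430 of all 8793 genes, with a median of 0.22 beside 0.00 for all genes. The number of calls depended on single arrays and fell to 2 without any 1 control array of 24 hpf or without morphant replicate 1 of 48 hpf. It was 3 without morphant replicate 1, 2 or 4 of 24 hpf, without control replicate 1 or without morphant replicate 2 or 3 of 48 hpf. The call of *mdc1* held without any 1 array, and that of *chek1* was lost only without control replicate 3 of 24 hpf. The call of *usp1* was lost without any 1 of 7 arrays, that of *rad9a* without any 1 of 11 and that of *xrcc5* without any 1 of 14. For *polh* (-0.16, adjusted p = 0.588) and *ercc3* (-0.19, adjusted p = 0.426), which were called at 48 hpf only, no difference between the ages was detected.

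From 24 to 48 hpf most of these genes fell in normal development. In controls 20 of the 28 (71.4%) were lower at 48 hpf, beside 25.0% of all probe sets, and 2 (7.14%) were higher, beside 20.9%. The shares over all genes with 1 probe set each were 30.3% lower and 21.9% higher. The median log2 change of the 28 was -0.36, beside -0.01 for all genes. *chek1* fell by 1.09 (adjusted p = 6.17e-08), which was the only change past a fold of 2, *mdc1* fell by 0.97, *rad9a* by 0.72, *msh6* by 0.70 and *xrcc5* by 0.61. All 4 genes of base excision and single-strand break repair fell, by 0.37 to 0.58. Both genes each of break ends (0.25 and 0.36), homologous recombination (0.28 and 0.33) and the Fanconi anemia pathway (0.27 and 0.53) fell as well. The genes that rose were *ddb1* (0.31, adjusted p = 0.00856) and *polh* (0.30, adjusted p = 0.0186), and neither was called without control replicate 3 of 48 hpf, while 1 was without control replicate 4 of 24 hpf. With the arrays centred on ribosomal protein genes 13 fell and 4 rose, beside 16.7% and 41.8% of all probe sets.

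In morphants 13 of the 28 (46.4%) were lower at 48 hpf, beside 21.4% of all probe sets, and 2 (7.14%) were higher, beside 21.1%. The shares over all genes with 1 probe set each were 27.35% lower and 21.66% higher. The median log2 change of the 28 was -0.14, and 1 gene in place of 2 was higher without morphant replicate 1 of 24 hpf or morphant replicate 2 or 3 of 48 hpf. The largest fall was again that of *chek1*, by 0.55 (adjusted p = 8.42e-05). The controls and the morphants share no array in these changes with age. Of the genes, 14 were called in the same direction in both, 8 in controls alone and 1 (*xpc*, 0.31, adjusted p = 0.0286) in morphants alone. Shared and separate calls were not counted over all probe sets, so these counts show no trait of the set. The tests of the difference are those given for the effects at 48 and 24 hpf. Across the 28 genes, which are not independent replicates, the changes had a Pearson correlation of 0.773. Centred on ribosomal protein genes, 2 fell and 8 rose in morphants, beside 9.93% and 58.5% of all probe sets. The direction of the set with age in morphants thus rests on the scaling. Under either scaling a smaller share of the set than of all probe sets rose.

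**Figure D4:**
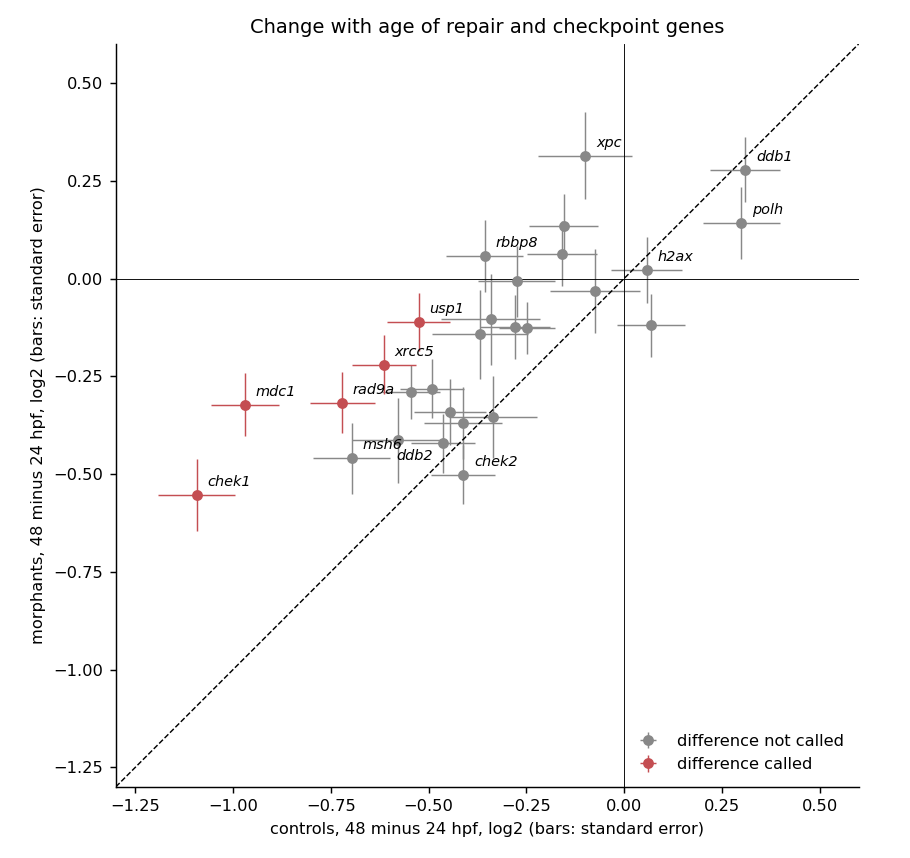
Log2 change from 24 to 48 hpf in controls (horizontal axis) and in morphants (vertical axis) for the 28 genes, with standard errors. The dashed line marks equal change. Red marks the 5 genes whose difference of the morphant effect between the ages was called in the fit over all arrays. The red points lie above the line, with *chek1* at -1.09 and -0.55 and *mdc1* at -0.97 and -0.32.

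A further list of 103 repair and checkpoint genes from textbook roles held 53 with a probe set. At 24 hpf 1 of them (1.89%) was higher and 5 (9.43%) were lower in morphants, beside 4.43% and 5.33% of all probe sets, with a median log2 difference of -0.08. At 48 hpf 10 (18.9%) were higher and 1 (1.89%) was lower, beside 12.8% and 9.79%, with a median of 0.06. The exception in size was *parp3*, which encodes a poly(ADP-ribose) polymerase that acts at DNA breaks. Its log2 levels at 24 hpf were 4.53, 4.59, 4.64 and 4.71 in controls and 6.13, 6.07, 5.96 and 6.07 in morphants, and at 48 hpf 4.71, 4.53 and 4.88 in controls and 6.18, 6.33, 6.16 and 6.22 in morphants. All morphant arrays were far above all controls at both ages. The rise was 2.71-fold at 24 hpf (log2 difference 1.44, standard error 0.08, adjusted p = 7.4e-10) and 2.86-fold at 48 hpf (1.51, standard error 0.08, adjusted p = 3.64e-09), and the effects did not differ detectably between the ages (0.08, 95% interval -0.17 to 0.32). It was the only one of these 53 genes past a fold of 2, and it kept its calls under every alternative in which it was tested (it lies below the median level and is left out where only brighter probe sets are kept).

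The other genes of that list that passed the test moved by less than *parp3*. At 24 hpf the falls with the smallest adjusted p were those of *rpa3* (-0.36), which encodes a subunit of the single-stranded DNA binding complex, *wdr48b* (-0.29), named for a partner of USP1, *fanci* (-0.27), whose product pairs with FANCD2, and *mus81* (-0.25), which encodes a nuclease for branched DNA. The calls of *wdr48b* and *fanci* were each lost without any 1 of 5 arrays, with adjusted p up to 0.1 and 0.0938. That of *wdr48b* was also lost with the replicate number as a block. At 48 hpf *rad18* (0.49, adjusted p = 8.68e-05), the gene of the ligase that opens translesion synthesis, *parp2* (0.50, adjusted p = 0.00045), the gene of another break-sensing polymerase, and *mus81* (0.47, adjusted p = 0.000445) were higher. *rpa3* was lower (-0.24, adjusted p = 0.0363). That call was lost without any 1 of 4 arrays, with the replicate number as a block, with the 48 hpf arrays fitted alone and with centring on ribosomal protein genes. The effect on *mus81* thus had opposite signs at the ages, with a difference of 0.71 (adjusted p = 0.000997). Its call at 24 hpf, however, was lost without any 1 of 9 arrays and under 4 other alternatives. Its second probe set, with log2 differences of -0.07 at 24 hpf and 0.29 at 48 hpf (adjusted p = 0.118), was called at neither age. At 48 hpf the morphant arrays of that probe set nevertheless all lay above the controls. A second, dimmer probe set of *rad18* had a log2 difference of -0.04 at 48 hpf (adjusted p = 0.895). With age 34 of the 53 genes (64.2%) fell in controls and 26 (49.1%) in morphants, beside 25.0% and 21.4% of all probe sets.

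For comparison, the same arrays gave the levels of p53 targets and of cell division genes, lists that overlap results already known from these data. The 9 measured genes listed as p53 targets were *mdm2*, *ccng1*, *sesn3*, *baxa*, *bbc3*, *phlda3*, *rps27l*, *gadd45aa* and *casp8*. The authors treat signaling through caspase 8 as a p53-independent route to apoptosis. All 9 were higher in morphants at both ages, beside 4.43% of all probe sets at 24 hpf and 12.8% at 48 hpf. The median log2 differences were 2.50 at 24 hpf and 1.43 at 48 hpf, and the lowest values were 1.16 and 0.54 (*baxa*, the gene of a mitochondrial death effector). The 95% interval of *baxa* was 0.98 to 1.34 at 24 hpf and 0.34 to 0.73 at 48 hpf. The upper 95% bounds for *ddb2*, 0.27 and 0.32, and for *polh*, -0.08 and -0.23, lay below these intervals of *baxa* at both ages. Intervals of the other listed genes were not compared. Among them is *bbc3*, whose controls at 48 hpf were spread over 5.70, 6.15 and 5.51. For the brighter *xpc* probe set the upper bound of 0.07 lay below at 24 hpf, but that of 0.51 at 48 hpf lay within the interval of *baxa*. Without control replicate 1 of 48 hpf *xpc* was called higher there (0.39, adjusted p = 0.029). The p53 list overlaps known results of these data, so its lowest gene is no measure of p53 targets in general. The part of p53 in the levels of *ddb2*, *xpc* and *polh* was not tested. Of 15 cell division genes 9 were lower at 24 hpf (median -0.40), beside 5.33% of all probe sets. At 48 hpf 6 were lower and 1 was higher (median -0.19), beside 9.79% and 12.8%. Their mean log2 level was 9.15 to 9.19 in controls and 8.75 to 8.82 in morphants at 24 hpf, and 8.4 to 8.69 and 8.31 to 8.41 at 48 hpf, so the groups were apart at 24 hpf and touched at 48 hpf. With age 13 of them fell in controls and 11 in morphants, beside 25.0% and 21.4% of all probe sets. Their part in the changes of the repair genes was not tested.

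Markers of tissues also moved between the groups. Of 20 measured markers 1 was higher and 7 were lower in morphants at 24 hpf, beside 4.43% and 5.33% of all probe sets. At 48 hpf 3 were higher and 7 were lower, beside 12.8% and 9.79%. All 4 neural progenitor genes were lower at 24 hpf, with a mean log2 level of 8.99 to 9.13 in morphants against 9.44 to 9.59 in controls, and 2 of the 4 at 48 hpf (8.85 to 8.97 against 9.12 to 9.18). The 2 lens genes were lower at 24 hpf (6.47 to 6.87 against 7.26 to 7.67), and 3 of 4 neuron genes were lower at 48 hpf (9.43 to 9.57 against 9.48 to 10.02). At 48 hpf the lens genes were instead at 11.30 to 11.35 in morphants against 10.67 to 11.08 in controls, with 1 of the 2 called higher. The red blood cell gene *alas2* was lower at 48 hpf (log2 difference -0.999), and *kdrl*, the only endothelial gene measured, was called higher (0.42). The *kdrl* levels at 48 hpf were 7.169, 6.3997 and 7.1293 in control replicates 1, 3 and 4, and 7.198 to 7.439 in morphants. All morphants lay above all controls, but the size of the *kdrl* difference rests largely on control replicate 3, the array that stood apart. The part of tissue make-up in the differences of the repair genes was not tested.

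**Figure D5:**
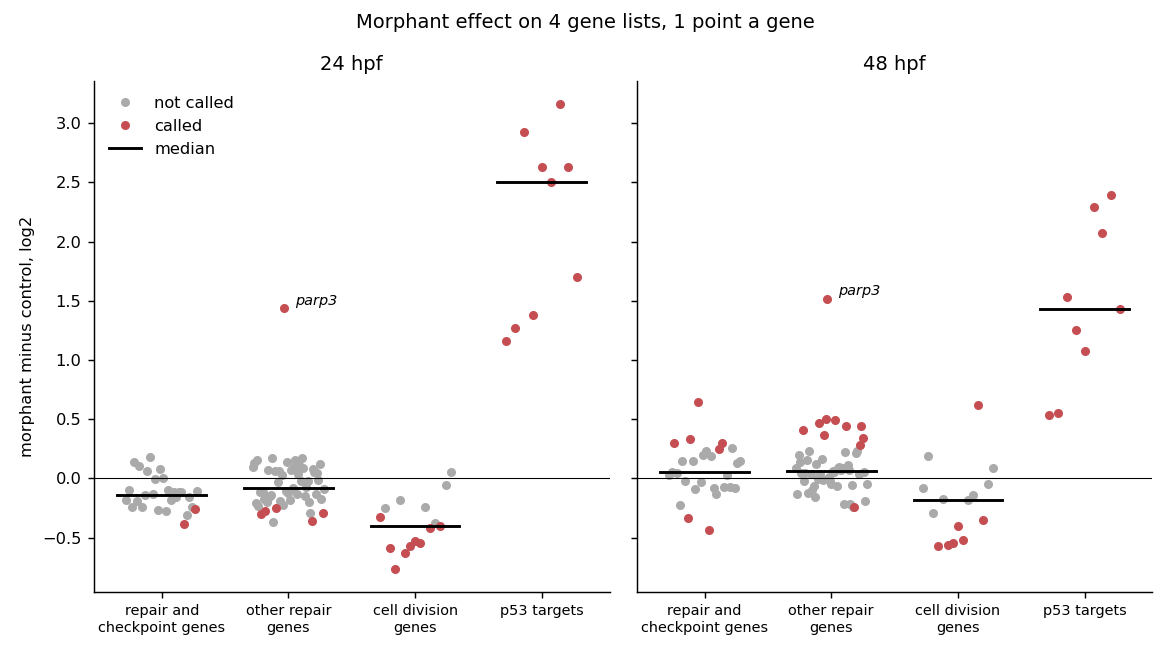
Log2 difference between morphants and controls at 24 and 48 hpf for the 28 repair and checkpoint genes, the 53 other repair genes, 15 cell division genes and 9 p53 targets, with 1 point a gene; red points were called, grey points were not, and black bars are medians. The p53 targets lie between 0.54 and 3.16, *parp3* lies at 1.44 and 1.51, and the 28 genes lie between -0.43 and 0.64.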

How the data were processed

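The authors deposited log2 values per probe set, made by RMA (background correction, quantile normalization and a summary of the probes). RMA makes the arrays alike in distribution, so changes are relative to the bulk of transcripts. The values were used as deposited. Of 15617 probe sets, 115 Affymetrix controls were left out; of the rest, 10795 carry 1 gene symbol in the platform annotation, 135 several and 4572 none. Groups were taken from the labels. Nothing further says how the pools were separated, so p-values measure the spread between these pools. limma 3.58.1 (lmFit, eBayes) in R 4.3.3 fitted a mean per group to all 15 arrays; 5 contrasts were tested two-sided and adjusted by Benjamini and Hochberg over 15502 probe sets. Tables and figures were made with Python 3.11.15, pandas 2.3.3 and matplotlib 3.10.9, and the code was tested on simulated data.

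The genes and lists were chosen with earlier results of these data known. Values in every array were given for genes called in a morphant contrast (up to 3 per role and age) and for *ddb2*, *xpc*, *polh*, *chek1*, *chek2*, *brca2*, *h2ax* and *msh6*; of other repair genes, up to 4 each way per age were named, by adjusted p. The second probe sets of *mdc1*, *xpc*, *mus81* and *rad18*, and genes called only in an alternative, were added after their values were seen. Alternatives comprised a replicate block, each age alone, brighter probe sets, cyclic loess, centring on 66 ribosomal protein genes, array weights (gene by gene, chosen after the default estimate did not converge), eBayes with trend and robust options, averaged probe sets per gene, a fold of at least 2, and leaving out each array. A search of promoters for motifs was not made.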

Additional observations from a re-analysis of the deposited data

Results flagged for a closer look

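A difference of the morphant effect between 48 and 24 hpf passed the test in 5 of the 28 repair and checkpoint genes and in *parp2*, *mus81* and *rad18*, all with a higher effect at 48 hpf, beside 3.75% higher and 2.52% lower of all probe sets. *parp2*, *mus81* and *rad18* had been named for their calls at 48 hpf, so their number is no result. The differences were 0.72 for *parp2*, 0.71 for *mus81*, 0.65 for *mdc1*, 0.58 for *rad18*, 0.54 for *chek1*, 0.41 for *usp1*, 0.40 for *rad9a* and 0.39 for *xrcc5* on the log2 scale. The controls at 48 hpf enter each of them, so they are not separate observations, and that group has 3 arrays.

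In 2 of 105 groups of 4 arrays 1 array lay far from the others, where chance flags about 1 in 20 groups. *wdr48b* measured 5.51 in morphant replicate 3 at 24 hpf and 5.69 to 5.72 in the other 3 morphant arrays. *parp2* measured 7.87 in control replicate 4 at 24 hpf and 7.69 to 7.71 in the other 3 controls.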

How the results depend on the processing

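Under every alternative, 0 genes were higher at 24 hpf and 0 had a lower effect at 48 than at 24 hpf. The other counts moved by over 1.5 times as follows. With the replicate number as a block, 1 gene was lower at 24 hpf, 1 higher at 48 hpf and 2 had a higher effect at 48 hpf; *xrcc5* at 24 hpf, *chek1*, *rad9a*, *rbbp8* and *fancl* at 48 hpf and the differences of *chek1*, *rad9a* and *xrcc5* were then not called. The deviations of same-numbered arrays correlated at 0.0205 to 0.198 at 24 hpf and at -0.451 to -0.0759 at 48 hpf. Arrays of different number were not compared, so these values do not settle whether the numbers pair the pools. The block was kept as an alternative. With each age fitted alone, 4 were lower at 24 hpf, and 1 was higher and 1 lower at 48 hpf. Among probe sets at or above the median level, which leaves out 11 of the 28 genes, 4 were lower at 24 hpf, 2 higher and 1 lower at 48 hpf, 1 higher and 11 lower with age in controls, and 1 higher with age in morphants. Cyclic loess gave 2 higher at 48 hpf, 3 with a higher effect at 48 hpf and 1 higher with age in morphants. Array weights gave 7 lower at 24 hpf. eBayes with trend and robust options gave 3 higher at 48 hpf. Averaging the probe sets of each gene gave 4 lower at 24 hpf. The share of all probe sets lower at 24 hpf was 8.88% with each age alone and 10.3% with array weights. It was 11.0% of the brighter probe sets, and 7.29% of all genes with averaging. With a fold of at least 2, 1 gene was lower with age in controls and the other counts were 0.

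Centring on ribosomal protein genes raised the median difference of all probe sets to 0.12 at 48 hpf, 0.18 with age in controls and 0.28 with age in morphants. It gave 1 gene lower at 24 hpf, 13 higher and 1 lower at 48 hpf, 4 higher and 13 lower with age in controls, and 8 higher and 2 lower with age in morphants. The split over all probe sets at 48 hpf became 24.9% higher and 5.55% lower. With age it became 41.8% higher and 16.7% lower in controls, and 58.5% higher and 9.93% lower in morphants. The change of *xrcc5* with age in morphants turned to 0.0337 (adjusted p = 0.697) and that of *fancl* to 0.25 (adjusted p = 0.0265). Which scaling is nearer to the RNA content was not tested.

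Leaving out 1 array in turn gave 1 to 6 lower at 24 hpf (6 without control replicate 3 of 48 hpf), 1 to 5 higher and 2 to 3 lower at 48 hpf, and 2 to 7 with a higher effect at 48 hpf. With age it gave 0 to 2 higher and 17 to 20 lower in controls, and 1 to 2 higher and 12 to 13 lower in morphants. For single genes of the 28, 1995 values kept their side of the threshold when an array was left out, 84 lost a call and 21 gained one. Array signals near the background limit what can be seen of the dimmest gene, *brca2*.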
